A study of Rattus norvegicus with 9 samples.

Results

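The miR-15, miR-16, miR-195 and miR-497 family is a set of small RNAs that share the bases by which a miRNA recognises its target transcripts. The 6 rat (rno) rows rno-miR-15a-5p, rno-miR-15b-5p, rno-miR-16-5p, rno-miR-195-5p, rno-miR-195-3p and rno-miR-497-5p, written without the prefix from here on, were taken by name from a table of 726 miRNA rows, and all 6 were present. Small RNA had been sequenced from cartilage progenitor cells, the cells of cartilage that can still divide and form chondrocytes, taken from condylar cartilage of wild-type rats and grown in primary culture. The P9 group held cells cultured to passage 9, the study's model of replicative senescence. The FFSS group held passage 3 cells exposed to flow fluid shear stress, a mechanical load whose strength and duration the labels do not state. The P3 group, cells at passage 3 without that load, was the control. Each group had 3 libraries, and the labels do not say whether these came from separate animals or cultures, so each p-value refers to the spread among these libraries, part or all of which may be technical.

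A miRNA guides a silencing complex to messenger RNAs that pair with its seed, bases 2 to 8 from the 5′ end. The pairing sites lie mostly in the 3′ untranslated region, after the coding sequence. The miR-15, miR-16, miR-195 and miR-497 family is known for repressing cyclins and cyclin-dependent kinases that carry a cell from G1 into S phase, and high levels of it are known to hold cells in G1. In mammals its members are made from separate genomic clusters, of which one holds miR-15b and miR-16, another miR-15a with a further copy of miR-16, and the last miR-195 and miR-497.

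The mature sequences are shown because they set which members can share targets and how closely their reads resemble each other. They are RefSeq sequences of the GRCr8 build, which matched 5 of the 6 rows. They run 5′ to 3′, and capitals mark the seed.
miR-16-5p: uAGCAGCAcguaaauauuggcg
miR-15b-5p: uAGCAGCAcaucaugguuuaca
miR-195-5p: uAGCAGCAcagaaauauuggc
miR-497-5p: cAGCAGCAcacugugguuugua
miR-322-5p: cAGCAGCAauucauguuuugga
miR-195-3p: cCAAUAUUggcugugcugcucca

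Of these members, 4 carry the seed AGCAGCA. The remaining one, miR-195-3p, has another seed, since it is the opposite arm of the miR-195 hairpin. Of 693 mature names in the RefSeq table, 5 have the seed AGCAGCA, and the only one of these that is no member is miR-322-5p, the rodent counterpart of human miR-424. miR-195-5p and miR-16-5p are identical at 19 of the 21 positions compared from the 5′ end, and differ by G10A and U11G (the miR-16-5p base first, positions counted from 1 at the 5′ end). miR-15b-5p and miR-497-5p are identical at 16 of 22 positions. No member was among the pairs of rows whose counts were nearly equal in every library.

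In GRCr8, miR-497-5p lies at chr10:55450172-55450193 and miR-195-5p at chr10:55450509-55450529, both on the plus strand and with 337 bases from start to start. miR-15b-5p lies at chr2:155555197-155555218 and miR-16-5p at chr2:155555343-155555364, on the plus strand and with 146 bases from start to start. The RefSeq annotation of GRCr8 places the miR-15b and miR-16 hairpins inside Smc4, the gene of a condensin subunit, and lists no gene spanning the miR-195 and miR-497 hairpins.

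Counted miRNA reads came to between 7614513 and 8177357 per library in P9, between 2878910 and 7082142 in FFSS and between 7522702 and 8862560 in P3. Levels are given in CPM, the count scaled to a common library total of those reads. Mature miRNAs are of nearly one length, so CPM carries no length term, although a read count also depends on how well each sequence is ligated. P9 replicate 3 stood apart from its group. Its correlation with the other P9 libraries, across the miRNAs tested, was 0.963 and 0.970, while those libraries correlated at 0.995 with each other, and it reached 0.976 with P3 replicate 2. FFSS replicate 1, the shallowest library, stood apart too. Its correlation with FFSS replicates 2 and 3 was 0.967 and 0.977, against 0.989 between them, and FFSS replicate 2 came closer to each P3 library (0.9719 to 0.9749) than to it. All 4 cartilage markers listed (both arms of miR-140 and miR-455) had reads in the series, with a summed level of 2590 to 3847 CPM in P9, 6077 to 7202 CPM in FFSS and 4150 to 7370 CPM in P3. Markers of other cells were present too. The summed level of 7 blood miRNAs was 69.6 to 307.6 CPM in P9, 167 to 591.9 CPM in FFSS and 75.8 to 156.7 CPM in P3, and that of 5 muscle miRNAs was 151 to 533.5 CPM, 189.3 to 538.1 CPM and 140.7 to 158.1 CPM in the same groups. Each listed marker that the table held had reads, and the part of other cells in the results was not tested.

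Passage 9 was set against passage 3 to ask how the family stood in replicative senescence. The miR-195/miR-497 cluster was lower in P9, and the miR-15/miR-16 clusters showed no detectable change. miR-195-5p, an arm known to repress cyclins D1 and E1, fell to 14.1 ± 3.05 CPM in P9, against 87.2 ± 33.7 CPM in P3 (SD, n = 3 each). miR-497-5p, its partner in the same cluster, fell to 5.30 ± 1.53 CPM in P9, against 32.9 ± 17.0 CPM in P3. miR-16-5p, the most abundant member, averaged 649.9 ± 294.6 CPM in P9 and 728.2 ± 200.7 CPM in P3. These are bulk samples, in which fewer cells of a type and less RNA per cell cannot be told apart. The cartilage and epithelial markers moved the same way, with every P9 library below every P3 library in their summed levels (25.2 to 77.8 CPM in P9 and 81.1 to 101.6 CPM in P3 for the epithelial ones), and their part in the fall was not tested.

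In the single libraries miR-195-5p had 17.6, 12.7 and 12.0 CPM in P9, against 88.8, 52.8 and 120.1 CPM in P3. The groups did not overlap, and even the highest P9 library lay below the lowest P3 library. The log2 fold change was -2.58 (SE 0.36), with an adjusted p of 6.52e-04 in edgeR's quasi-likelihood test, which ranked 5 of the 439 miRNAs tested. The 95% interval of that value ran from -3.37 to -1.80.

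miR-497-5p had 4.86, 6.99 and 4.04 CPM in P9, against 32.8, 15.95 and 49.9 CPM in P3. Again no P9 library reached a P3 library, although miR-497-5p was counted only 33 to 55 times in a P9 library. Its log2 fold change was -2.56 (SE 0.45, adjusted p = 0.00346), close in size to that of miR-195-5p. miR-195-5p and miR-497-5p kept their calls without any one of the 9 libraries, with adjusted p up to 0.00670 and 0.0167.

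miR-195-3p, the arm with the other seed, had 2.63, 3.56 and 14.6 CPM in P9, against 41.4, 28.2 and 41.2 CPM in P3. All P9 libraries were below P3, with P9 replicate 3 several times above the other P9 libraries. That library also had the highest summed levels of nervous system (878.3 CPM), muscle (533.5 CPM) and liver (22.9 CPM) markers in P9. Its endothelial (490.5 CPM) and blood markers (307.6 CPM, against 301.4 CPM in P9 replicate 2) were the highest in P9 too. Its cartilage (2590 CPM) and epithelial markers (25.2 CPM) were the lowest. The part of these markers in the level of miR-195-3p was not tested. The log2 fold change of miR-195-3p was -2.28 (SE 0.56, adjusted p = 0.0234). The value was -3.53 without P9 replicate 3 (adjusted p = 3.05e-05). The change did not pass without P9 replicate 1 (adjusted p = 0.0565), P9 replicate 2 (0.128), P3 replicate 1 (0.0730), P3 replicate 2 (0.0524) or P3 replicate 3 (0.101), or in a fit of only P9 and P3 (0.0603).

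miR-16-5p had 933.9, 670.1 and 345.7 CPM in P9, against 765.8, 511.4 and 907.4 CPM in P3. The groups overlapped, the highest and the lowest library were both of P9, and the log2 fold change of -0.14 (SE 0.35, adjusted p = 0.918) had a 95% interval from -0.89 to 0.62. miR-15b-5p, which shares its primary transcript with a copy of miR-16, had 130.4, 86.3 and 78.1 CPM in P9, against 128.8, 64.2 and 114.6 CPM in P3. Its groups overlapped as well, and the 95% interval of its log2 fold change was -0.64 to 0.64 (adjusted p = 0.999). A fall of the size seen for miR-195-5p lies outside both intervals.

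miR-15a-5p was nearly absent. It was counted 6 times over the P9 libraries, 12 times over the FFSS libraries and 3 times over the P3 libraries, and did not pass the filter on low counts. In P3 replicate 2 it had 0 reads, which allows a level of up to 0.399 CPM (3 counts, counting error only). Its opposite arm, miR-15a-3p, had 1 read in the whole table. The other arms of the miR-15b and miR-16 hairpins did not pass at passage 9, with log2 fold changes of 0.02 (adjusted p = 0.989) for miR-15b-3p and -0.05 (adjusted p = 0.9749) for miR-16-3p.

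Of the 5 members tested, 3 were called lower and 0 higher in P9, where 3.42% of all 439 miRNAs were called lower. The median log2 fold change was -2.28 over the 5 members and 0.06 over all 439. The 3 called are the products of the neighbouring miR-195 and miR-497 hairpins, so they are not independent of each other. In the same 3 the libraries did not overlap and P9 was lower, as they were for 14.1% of all miRNAs.

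**Figure D1:**
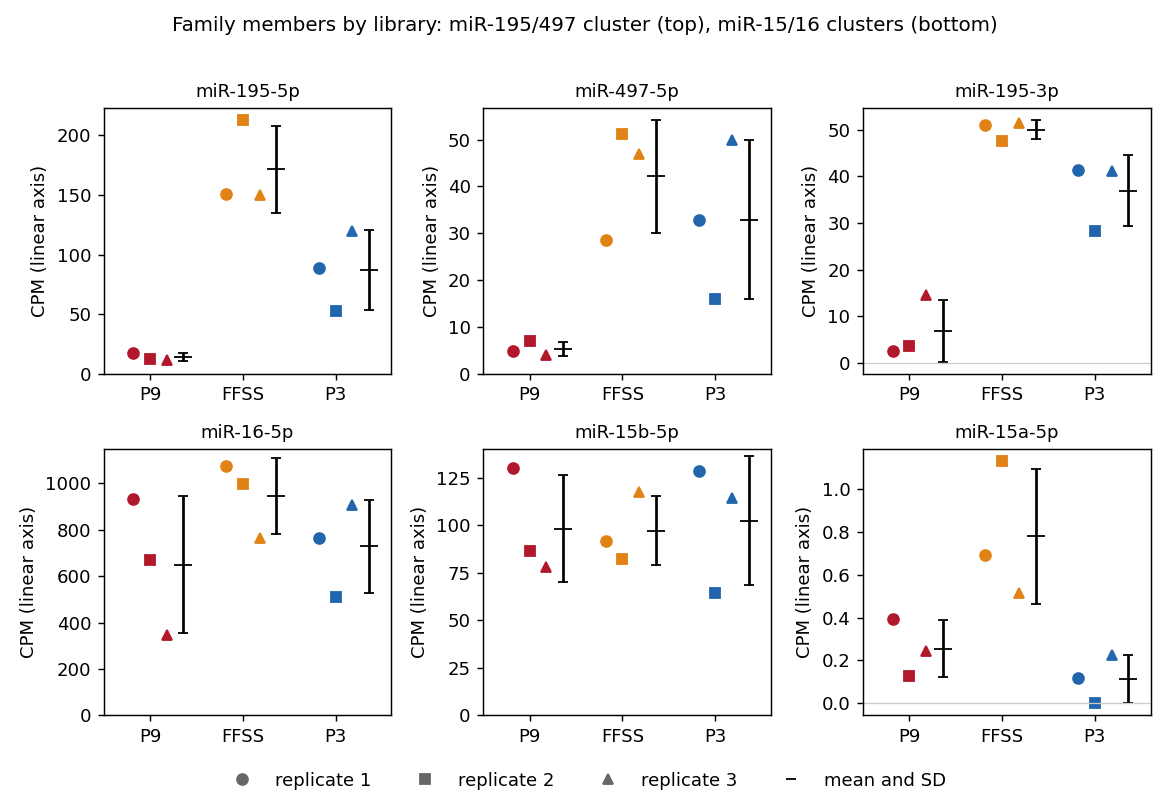
Level of each member in each library on the vertical axis (CPM, linear scale, a scale of its own per panel), with P9, FFSS and P3 along the horizontal axis, marker shape for the replicate number, and the mean with SD beside each group. In the upper row every P9 library lies below every FFSS and P3 library, while in the lower row miR-16-5p and miR-15b-5p overlap between all groups and miR-15a-5p stays near 1 CPM or below.

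Shear-stressed passage 3 cells were compared with P3 cells to ask whether mechanical load moved the same miRNAs. No member was called with edgeR under FFSS, where 20.5% of the 439 miRNAs were called in either direction. The smallest p among the 5 members tested was that of miR-195-5p, which ranked 103 of the 439. miR-195-5p had 150.8, 212.9 and 150.1 CPM in FFSS, against 88.8, 52.8 and 120.1 CPM in P3. All FFSS libraries were above the P3 libraries, as for 18.9% of all miRNAs. The log2 fold change was 0.95 (SE 0.34, adjusted p = 0.0674), with a 95% interval from 0.21 to 1.69. The summed levels of the blood and muscle markers given above were also higher in every FFSS library than in every P3 library. So were those of the endothelial markers, both arms of miR-126a, at 556.3 to 695.1 CPM in FFSS against 385.7 to 406.4 CPM in P3, and of the liver marker miR-122-5p, at 15.5 to 51.4 CPM in FFSS against 9.87 to 11.7 CPM in P3. The part of these in the result was not tested. The miR-195-5p value passed the threshold without P9 replicate 3 (adjusted p = 0.0484), without P3 replicate 3 (0.0452), with upper-quartile factors (0.0475) and with DESeq2 (0.0226), and it was 0.88 without FFSS replicate 1 (0.110), so the side of the threshold on which it fell rested on these choices.

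The other products of the cluster were less apart. miR-195-3p had 51.1, 47.6 and 51.3 CPM in FFSS, against 41.4, 28.2 and 41.2 CPM in P3, which did not overlap but gave a log2 fold change of only 0.41 (SE 0.53, adjusted p = 0.587). miR-497-5p had 28.5, 51.1 and 47.0 CPM in FFSS, against 32.8, 15.95 and 49.9 CPM in P3, and the groups overlapped (0.31, SE 0.42, adjusted p = 0.589).

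In the miR-15/miR-16 clusters, miR-16-5p had 1076, 998.7 and 764.0 CPM in FFSS, against 765.8, 511.4 and 907.4 CPM in P3. The groups overlapped, and the log2 fold change of 0.36 (SE 0.35, adjusted p = 0.455) had a 95% interval from -0.39 to 1.12. miR-15b-5p had 92.0, 82.2 and 117.5 CPM in FFSS, within the range of the P3 libraries (-0.11, SE 0.30, adjusted p = 0.817). The median log2 fold change was 0.36 over the 5 members and 0.02 over all 439.

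The direct comparison of P9 with FFSS shares its P9 libraries with the comparison at passage 9. It also shares its FFSS libraries with the comparison under load, so it is no separate evidence. P9 and FFSS differ in both passage and load, and the parts of these cannot be told apart here. This comparison gave the largest change of miR-195-5p among the 3 comparisons. miR-195-5p averaged 14.1 ± 3.05 CPM in P9 and 171.3 ± 36.1 CPM in FFSS (SD, n = 3 each), a log2 fold change of -3.53 (SE 0.38, adjusted p = 1.81e-04). It had the smallest p of all 439 miRNAs in this comparison, and P9 was 11.55-fold lower. miR-497-5p averaged 5.30 ± 1.53 CPM in P9 and 42.2 ± 12.05 CPM in FFSS (-2.88, SE 0.46, adjusted p = 7.10e-04), and miR-195-3p averaged 6.91 ± 6.63 CPM in P9 and 49.99 ± 2.09 CPM in FFSS (-2.69, SE 0.57, adjusted p = 0.00342, and -3.88 without P9 replicate 3). Every P9 library also lay below every FFSS library in the summed cartilage, endothelial (275.1 to 490.5 CPM in P9 and 556.3 to 695.1 CPM in FFSS) and epithelial markers (25.2 to 77.8 CPM in P9 and 90.4 to 226.5 CPM in FFSS), whose part in the fall was not tested.

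Thus 3 of the 5 members tested were called lower in P9 than in FFSS and 0 higher, where 11.8% of all miRNAs were called lower. Their libraries did not overlap, as for the 19.8% of all miRNAs whose P9 libraries were all below FFSS. The calls over all miRNAs were 99 higher and 52 lower, and 94 and 77 with upper-quartile factors. The 3 calls held without any one of the 9 libraries, with adjusted p up to 0.00121 for miR-195-5p, 0.00422 for miR-497-5p and 0.0193 for miR-195-3p. miR-16-5p (-0.50, SE 0.35, adjusted p = 0.279) and miR-15b-5p (0.11, SE 0.30, adjusted p = 0.796) did not pass.

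**Figure D2:**
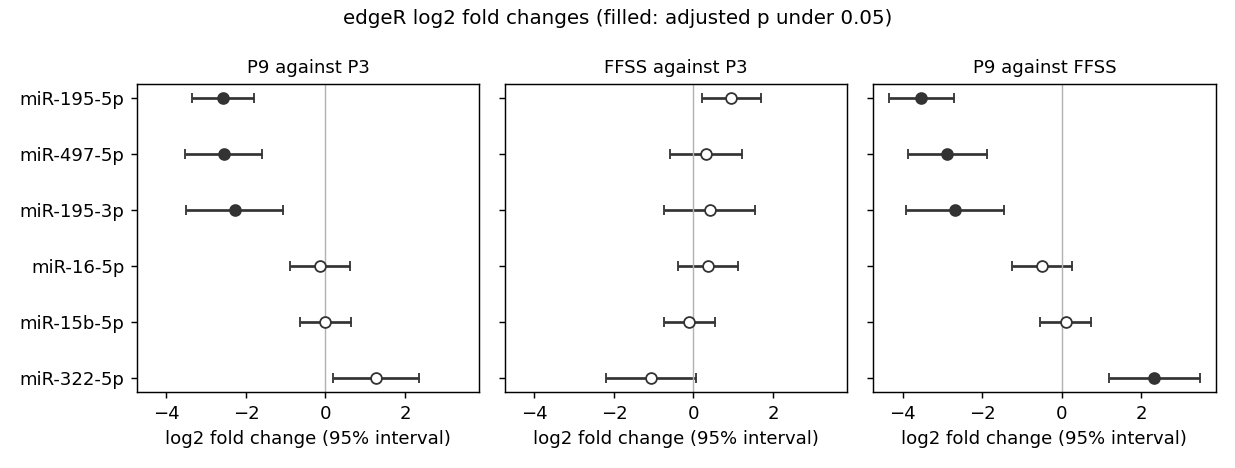
log2 fold change with its 95% interval on the horizontal axis for 5 members and miR-322-5p, with a panel each for the P9 to P3, the FFSS to P3 and the P9 to FFSS comparison. Filled points passed an adjusted p of 0.05 in edgeR. The products of the miR-195/miR-497 cluster lie near -2.3 to -3.5 in both comparisons that hold P9, while miR-16-5p and miR-15b-5p have intervals that include 0 in each panel.

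Whether the miR-195/miR-497 cluster parted from the miR-15/miR-16 clusters was tested within libraries, as the log2 ratio of each miRNA to miR-16-5p, which does not depend on how libraries are scaled. Reads of miR-195-5p came to 1.88%, 1.90% and 3.47% of those of miR-16-5p in P9, against 11.6%, 10.3% and 13.2% in P3. The P9 libraries were all lower, as in CPM for 14.1% of all miRNAs, while such a share was not counted for the ratios. The log2 ratio differed by -2.33 (SE 0.43, adjusted p = 0.00905 in limma over 438 miRNAs, of which 1.14% were called lower relative to miR-16-5p). For miR-497-5p it differed by -2.27 (SE 0.50, adjusted p = 0.0242), for miR-195-3p by -2.56 (SE 0.75, adjusted p = 0.0937), and for miR-15b-5p by 0.20 (SE 0.44, adjusted p = 0.967).

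The size of both differences at passage 9 changed little without single libraries, while some left them short of the threshold. miR-195-5p ranged from -2.62 to -2.18 and did not pass without P9 replicate 2 (adjusted p = 0.0729), P3 replicate 1 (0.0684) or P3 replicate 3 (0.0677). miR-497-5p ranged from -2.49 to -1.91 and did not pass without P9 replicate 1 (adjusted p = 0.116), P9 replicate 2 (0.0729), P3 replicate 1 (0.1245) or P3 replicate 3 (0.140). miR-195-3p passed without P9 replicate 3, at -3.70 (adjusted p = 8.94e-05).

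In FFSS, reads of miR-195-5p came to 14.0%, 21.3% and 19.7% of those of miR-16-5p. All FFSS libraries were above the 10.3% to 13.2% of P3, but the difference of 0.63 in the log2 ratio did not pass (SE 0.43, adjusted p = 0.3997). In CPM, 18.9% of all miRNAs had every FFSS library above every P3 library, and such a share was not counted for the ratios. None of the 438 miRNAs was called higher relative to miR-16-5p in this comparison and 12.1% were called lower. P9 against FFSS gave -2.96 for miR-195-5p (SE 0.43, adjusted p = 9.00e-04), -2.33 for miR-497-5p (SE 0.50, adjusted p = 0.00418) and -2.62 for miR-195-3p (SE 0.75, adjusted p = 0.0181), where 3.65% of all were called lower. The difference of miR-195-3p was -3.76 without P9 replicate 3, and it did not pass without P9 replicate 1 (-1.82, adjusted p = 0.0723), P9 replicate 2 (0.0609), FFSS replicate 1 (0.0617) or FFSS replicate 3 (0.0620).

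Summed by cluster, miR-195-5p and miR-497-5p made up 2.07% (95% Clopper-Pearson interval 1.77 to 2.40), 2.54% (2.16 to 2.96) and 3.64% (3.05 to 4.30) of the reads of the 5 members that end in 5p in the P9 libraries. They made up 13.3% (12.2 to 14.4), 19.6% (18.8 to 20.4) and 18.3% (17.1 to 19.5) in FFSS, and 12.0% (11.3 to 12.7), 10.7% (9.81 to 11.6) and 14.3% (13.6 to 14.9) in P3. The P9 libraries thus stand apart from the rest, while FFSS replicate 1 lies between P3 libraries. The intervals cover only the counting error within a library, not the spread among libraries. The deposited values are read counts, so copies of the same molecule may not be told apart and the intervals may be too narrow.

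**Figure D3:**
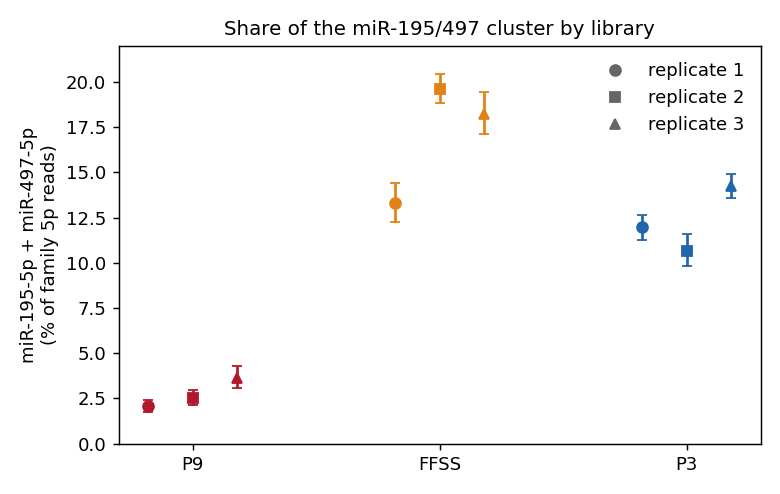
Reads of miR-195-5p plus miR-497-5p as a percent of all reads of the 5 family members that end in 5p (vertical axis), for each library of P9, FFSS and P3, with 95% Clopper-Pearson intervals as bars. P9 lies at 2.07% to 3.64%, FFSS at 13.3% to 19.6% and P3 at 10.7% to 14.3%.

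miR-16-5p supplied most of the family's reads. It made up 78.5% to 86.3% of these reads in P9, 70.8% to 79.8% in FFSS and 75.4% to 79.4% in P3. The total of the 5 members was 1087, 776.2 and 440.1 CPM in P9, 1348, 1346 and 1079 CPM in FFSS, and 1016, 644.3 and 1192 CPM in P3. P9 and P3 overlapped in this total, and the lowest value was that of P9 replicate 3.

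The order of the members by mean level was the same in P9 and P3, and in FFSS miR-195-5p and miR-15b-5p changed places. In P9 and P3 it was miR-16-5p, miR-15b-5p, miR-195-5p, miR-195-3p, miR-497-5p and miR-15a-5p. In P9 miR-195-5p and miR-195-3p overlapped, while miR-15b-5p lay above miR-195-5p in every library. In FFSS miR-195-5p stood above miR-15b-5p, at 171.3 ± 36.1 CPM against 97.3 ± 18.2 CPM, and the libraries of these members did not overlap. In P3 miR-15b-5p at 102.5 ± 33.9 CPM and miR-195-5p at 87.2 ± 33.7 CPM overlapped. miR-195-3p and miR-497-5p overlapped in every group.

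The miR-195 hairpin is shown because the ratio of its arms varied widely among the P9 libraries. It lies at chr10:55450495-55450581 on the plus strand of GRCr8, with the mature arms in capitals, miR-195-5p first.
miR-195 hairpin: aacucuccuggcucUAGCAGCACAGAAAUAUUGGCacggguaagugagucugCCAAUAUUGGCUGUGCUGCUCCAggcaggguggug

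Reads of the 5p arm per read of the 3p arm were 6.70, 3.57 and 0.824 in P9, against 2.95, 4.47 and 2.925 in FFSS and 2.15, 1.87 and 2.915 in P3. In P9 replicate 3 alone the 3p arm had more reads than the 5p arm, with 119 against 98 reads, while P9 replicates 1 and 2 had 20 and 28 reads of the 3p arm. Over groups, the log2 ratio of the arms did not differ past the test, with P9 minus P3 at 0.24 (SE 0.62, adjusted p = 0.989 in limma over 89 hairpins) and FFSS minus P3 at 0.57 (SE 0.62, adjusted p = 0.549). The sign of the values with P9 turned on single libraries. P9 minus P3 was 1.08 without P9 replicate 3 and -0.41 without P9 replicate 1, and none of these passed. At passage 9, 0% of the 89 hairpins were called, while 4.49% were under FFSS and 7.87% for P9 against FFSS, where the miR-195 arms differed by -0.34 (adjusted p = 0.7197), and by 0.51 without P9 replicate 3 (adjusted p = 0.325). miR-16 had 88.9 to 97.5 reads of its 5p arm per read of its 3p arm in P9 and 93.8 to 101.8 in P3, and 165.4 to 392.9 in FFSS. FFSS libraries lay above all others there, but the 3p arm had only 17 or 18 reads in each and the difference from P3 of 1.20 did not pass (SE 0.38, adjusted p = 0.0730).

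**Figure D4:**
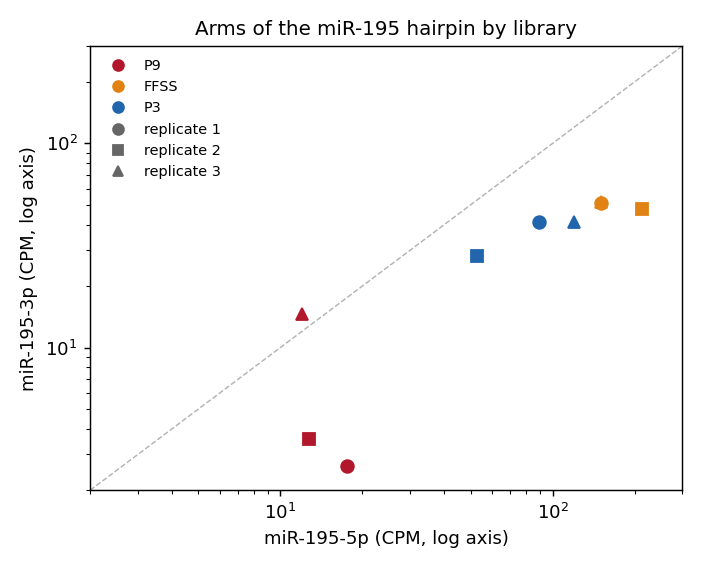
Level of miR-195-3p (vertical) against miR-195-5p (horizontal), each in CPM on a log axis, with 1 point per library, colour for the group and shape for the replicate. The points of FFSS replicates 1 and 3 nearly coincide, and the dashed line marks equal levels. P9 replicate 3, at 12.0 CPM of the 5p arm and 14.6 CPM of the 3p arm, is the only library above it.

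miR-322-5p has the same seed but is made from another cluster, at chrX:137726198-137726219 on the minus strand of GRCr8, and was not called lower in P9. It had 56.6, 39.0 and 11.3 CPM in P9, 4.52, 7.77 and 9.75 CPM in FFSS and 14.9, 8.77 and 21.1 CPM in P3. P9 replicate 3 lay within the P3 range and the other P9 libraries above it. The log2 fold change was 1.27 for P9 against P3 (SE 0.50, adjusted p = 0.186) and -1.07 for FFSS against P3 (SE 0.52, adjusted p = 0.157), and neither passed. P9 against FFSS gave 2.34 (SE 0.53, adjusted p = 0.00487), with every P9 library above every FFSS library, as for 23% of all miRNAs. Among the reads of miR-322-5p and the 5 members that end in 5p, miR-322-5p made up 2.49% to 4.95% in P9, 0.334% to 0.896% in FFSS and 1.34% to 1.74% in P3. miR-322-3p, its other arm, and miR-503-5p, its neighbour with another seed, did not pass in any comparison. The log2 ratio of the miR-322 arms, 5p over 3p, was 2.40 higher in P9 than in FFSS (SE 0.66, adjusted p = 0.0496 in limma). In that comparison 7.87% of the 89 hairpins were called. The value lay just under the threshold, and the 5p arm had only 13, 55 and 38 reads in the FFSS libraries. No values without single libraries are given for this ratio. The ratio did not pass for P9 against P3 (0.77, adjusted p = 0.989) or FFSS against P3 (-1.64, adjusted p = 0.1225).

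Among 178 other miRNAs with a mean of at least 50 CPM, those most like miR-195-5p over the 9 libraries were a pair with nearly equal counts in every library, miR-378a-3p with miR-3557-5p, and then miR-224-5p. Likeness was the root mean square difference between log2(CPM + 1) values centred on each miRNA's mean, and it was 0.58 for the first pair and 0.70 for miR-224-5p. miR-497-5p had the same pair as its nearest (0.59), followed by miR-708-3p (0.64). The difference between miR-195-5p and miR-497-5p themselves was 0.43, between miR-195-5p and miR-195-3p 0.72, and between miR-195-5p and miR-16-5p 1.27. For miR-16-5p the nearest were miR-101b-3p (0.20), miR-101a-3p (0.21) and miR-152-3p (0.24).

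Other miRNAs known to restrain the G1 to S step were read from a list of 16 let-7, miR-34, miR-449a, miR-26 and miR-322/miR-503 products, and all 16 were tested. At passage 9 the median log2 fold change was -0.19 and 0 of the 16 were called lower. miR-34c-5p rose (2.72, SE 0.42, adjusted p = 0.00105), where 3.87% of all miRNAs were called higher. miR-34b-5p was called as well, but it had only 25, 24 and 17 reads in P9, against 2, 2 and 3 in P3. It passed the filter on low counts only through P9, so its call is given no weight. miR-34a-5p (0.26, SE 0.44, adjusted p = 0.837) and miR-449a-5p (1.76, SE 0.55, adjusted p = 0.0707) were not called. Under FFSS 1 fell and 0 rose, with a median of 0.03, and this was the let-7 relative miR-98-5p (-0.85, SE 0.27, adjusted p = 0.0441), where 13.7% of all were called lower. For P9 against FFSS, miR-34c-5p (2.72, SE 0.42, adjusted p = 6.87e-04) and miR-322-5p were higher, while let-7b-5p (-1.07, SE 0.21, adjusted p = 0.00273) and miR-26a-5p (-0.71, SE 0.21, adjusted p = 0.0211) were lower in P9. Of the 16 these are 2 in each direction, where 22.6% of all miRNAs were called higher and 11.8% lower.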

How the data were processed

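Small RNA libraries of the P9, FFSS and P3 groups (3 each) were sequenced from a single end, with Bowtie and the build Rnor_6.0 named in the submitters' processing notes. No source used here names the counting program or the miRNA annotation release. The authors deposited a read count and a TPM value for each of 726 rows, per the file headers. The deposited TPM equalled the CPM computed from the counts within 4.85e-05.

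Counts were tested with edgeR 4.0.16 in R 4.3.3 (filterByExpr, which kept 439 miRNAs, TMM, robust quasi-likelihood test, 1 model of all 9 libraries), with Benjamini-Hochberg adjustment over the 439 and a threshold of 0.05. The log2 ratio to miR-16-5p over 438 miRNAs, and that of the arms (hairpins averaging 20 or more counts in each arm), were tested with limma 3.58.1 after adding 0.5 to each count. DESeq2 1.42.0 was an alternative. Scripts were tested on simulated data. Samples were grouped by their titles. Same-numbered libraries of different groups did not deviate together, with correlations from -0.503 to 0.131, so numbers were not taken as pairs. For different numbers the correlations ran from -0.521 (P9 replicate 1 with P3 replicate 2) to 0.498 (P9 replicate 3 with P3 replicate 2). Whether libraries were linked under other numbers was not tested.

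The members and the lists were chosen with earlier results of these data known. Named besides the members are the miRNAs of the same seed, other arms of member hairpins and products of the miR-322/miR-503 cluster. Also named are the 3 miRNAs most like each of miR-195-5p, miR-497-5p and miR-16-5p, and called members of the G1 list. miR-34a-5p and miR-449a-5p of that list are named beside the called miR-34 products. Lists of endothelial (2 miRNAs, 275.1 to 695.1 CPM summed per library), epithelial (7 in the table, 25.2 to 226.5 CPM), nervous system (4, 59.4 to 878.3 CPM) and liver (1, 3.43 to 51.4 CPM) markers were read as levels only.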

Additional observations from a re-analysis of the deposited data

How the results depend on the processing

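Over the log2 fold changes and log2 ratios of the members, 517 of 540 values under an alternative kept their direction, where called, and their side of the threshold, 17 lost and 6 gained a call, and none turned a called direction. For P9 against P3 and P9 against FFSS, the number of members called stayed at 2 to 3 and at 3 in all alternatives run. For FFSS against P3 it was 1 in place of 0, miR-195-5p, with upper-quartile factors (1), with the DESeq2 test (1) and without P9 replicate 3 and FFSS replicate 1 together (1, chosen after seeing the data), and 0 to 1 without single libraries. All miRNAs called numbered 32 for P9 against P3, with 16 to 51 without single libraries and 89 without P9 replicate 3 and FFSS replicate 1 together. For FFSS against P3 they numbered 90, with 36 to 147 without single libraries, 175 without that pair and 51 with the replicate block. For P9 against FFSS they numbered 151, with 109 to 203 without single libraries. The replicate block changed no call of a member, and not every library correlated best with those of its own number. The log2 ratio to miR-16-5p for P9 against P3 ranged from -2.62 to -2.18 for miR-195-5p and from -2.49 to -1.91 for miR-497-5p without single libraries. Upper-quartile factors moved the median of all miRNAs for P9 against FFSS by -0.11. Thinning every library to 2878910 reads, also chosen after seeing the data, changed no member's call. The causes were not tested. Few reads limit miR-15a-5p and, in P9, miR-497-5p and miR-195-3p.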
